A study of Mus musculus with 80 samples.

Results

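Isl1, Otp, Bsx, Tbx3, Nkx2-1, Hmx2, Hmx3 and Nhlh2 are 8 transcription factor genes that were grouped here under AgRP neuron identity in the mouse arcuate nucleus. They were taken by symbol, whatever their values, and are 8 of the 23337 genes in the deposited table. Their normalised counts, which are read counts divided by a library size factor, were followed in all 80 libraries. The labels call every library AgRP+ neurons of the arcuate nucleus (ARH) and place it in 1 of 20 groups.

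The libraries came from 4 sets of mice. NPY::hrGFP mice carry a green fluorescent protein under Npy control, and GFP-positive cells were sorted from slices of the arcuate nucleus to give 33 libraries. These were fed ad libitum (6 libraries at ZT2, 3 at ZT14), given an effective fast of 24 hours (7 and 8), or fasted likewise and refed for 1 hour (5 and 4). ZT counts hours from lights on, so ZT2 lies early in the light phase and ZT14 early in the dark phase. AGRP-Cre;RiboTag mice tag the ribosomes of cells that expressed Cre under Agrp control, and RNA bound to the tagged ribosomes was precipitated to give 17 libraries. Of these, 3 at ZT2 and 4 at ZT14 were fed ad libitum and 5 at each time were fasted. A leptin series of 25 libraries used BMAL1fx mice, in which the clock gene Arntl (Bmal1) is floxed, either WT for Cre (controls) or with AGRP-Cre (knockouts). They received leptin or PBS at ZT2 or ZT14, with 3 libraries in each group except 4 in the PBS controls at ZT2. A further 2 control and 3 knockout libraries of the same genotypes were taken at ZT5 with no treatment given in the labels. All mice of these last 2 sets carry the floxed allele. The labels give no age and do not say how many mice went into a library or whether libraries of a group came from separate mice, so every p-value measures the spread between libraries. In bulk libraries fewer cells of a type and less RNA per cell cannot be told apart.

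AgRP neurons make the peptides AgRP and NPY, release GABA, and drive feeding. The 8 genes are known from different steps, and Hmx2, Hmx3 and Nhlh2 from other neurons of the arcuate nucleus. Nkx2-1 is a homeodomain protein that marks the ventral hypothalamus in the embryo. Isl1, a LIM-homeodomain protein, and Otp, a homeodomain protein, are needed for arcuate precursors to become peptide neurons. Bsx is a homeodomain protein needed for full Agrp and Npy transcription and for the drive to feed. Tbx3, a T-box protein, keeps arcuate AgRP and POMC neurons in their peptide identity. Hmx2 and Hmx3 are neighbouring homeobox genes that act in the GHRH neurons of the same nucleus. Nhlh2 is a basic helix-loop-helix protein known from POMC neurons, where it acts with STAT3 on Pcsk1, a gene for a prohormone-processing enzyme.

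On mm10 (GENCODE M21) Isl1 lay on the minus strand of chromosome 13 from 116298281 to 116309689, and Otp on the plus strand of the same chromosome from 94875602 to 94885130. Bsx lay on chromosome 9 from 40874127 to 40880057 and Tbx3 on chromosome 5 from 119670669 to 119684724, both on the plus strand. Nkx2-1 lay on the minus strand of chromosome 12 from 56531958 to 56536908. Hmx3 (131542867 to 131544925) and Hmx2 (131548773 to 131558014) were neighbours on the plus strand of chromosome 7. Nhlh2 lay on the plus strand of chromosome 3 from 102010076 to 102015492. The antisense transcript Tbx3os1 overlaps exons of Tbx3, and the strand setting of the counting is not given in the sources used here, so reads of that pair cannot be told apart.

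The bases before the start of Isl1, Otp and Bsx are shown because these genes, with Tbx3, carried the measurable differences, and because they can be read beside each other. RefSeq promoter sequence of GRCm38.p6 was matched for 7 of the 8 genes, Tbx3 being the other. Capitals mark the letters CCAAT on either strand (ATTGG is the same motif on the other strand).
Isl1, chr13:116309690-116309938, minus strand: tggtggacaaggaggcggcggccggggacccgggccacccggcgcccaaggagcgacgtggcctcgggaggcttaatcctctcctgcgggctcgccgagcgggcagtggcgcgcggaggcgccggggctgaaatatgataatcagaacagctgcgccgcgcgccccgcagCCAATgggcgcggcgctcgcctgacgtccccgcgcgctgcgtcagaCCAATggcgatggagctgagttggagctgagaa
Otp, chr13:94875386-94875601, plus strand: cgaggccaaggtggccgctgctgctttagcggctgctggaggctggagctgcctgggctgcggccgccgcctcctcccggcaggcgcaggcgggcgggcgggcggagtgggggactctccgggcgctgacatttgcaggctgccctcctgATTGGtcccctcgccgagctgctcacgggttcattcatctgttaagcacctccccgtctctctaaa
Bsx, chr9:40873877-40874126, plus strand: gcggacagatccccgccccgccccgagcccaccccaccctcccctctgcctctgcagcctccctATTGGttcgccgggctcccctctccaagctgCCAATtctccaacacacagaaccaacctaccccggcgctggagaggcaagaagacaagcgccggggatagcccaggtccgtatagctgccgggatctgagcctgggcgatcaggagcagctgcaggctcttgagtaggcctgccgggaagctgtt
The full 250 bases before the RefSeq start were 71.2% G and C with 33 CpG dinucleotides for Isl1. They were 65.2% with 18 for Otp and 65.6% with 14 for Bsx. Of these windows 249 bases are printed for Isl1, 216 for Otp and 250 for Bsx, so the shares are not those of the printed letters of Isl1 and Otp. The median of 32851 promoters was 52.4% and 6. CCAAT was present before 5 of the 7 genes (Bsx, Hmx2, Isl1, Nhlh2 and Otp) and before 33.8% of all promoters; it was picked for display after the letters had been seen. Of the 7 motifs searched on both strands, the other 6 were found before none of the 7 genes. These were CACGTG (the E-box of clock factors, in 6.02% of all promoters), GTAAACA (FoxO, 3.17%), TTCNNNGAA (STAT, 7.02%), TGACGTCA (CRE, 1.55%), AGGTGTGA (T-box, 1.12%) and TAATTA (homeodomain, 4.84%). A search of these windows says only which letters they hold.

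The 8 genes split by detection. Isl1, Otp, Bsx and Tbx3 were above 0 in all 80 libraries. Nkx2-1 reached a normalised count of 10 in all 17 RiboTag libraries but in 6 of 33 sorted libraries, all 6 of them fasted, and in none of the leptin or ZT5 libraries. Nhlh2 reached 10 in 14 of 17 RiboTag and 3 of 33 sorted libraries. Hmx2 and Hmx3 stayed below 12.2 and 21.6 in every library and were above 0 in 13 and 14 of the 17 RiboTag libraries, against 2 and 1 of the 33 sorted ones. A count of 3 reads corresponds to a normalised count of 1.70 to 4.67 in sorted and 1.85 to 8.71 in RiboTag libraries, so Hmx2, Hmx3 and, in sorted cells, Nhlh2 lay mostly at or under the depth of these libraries. These floors cover counting error only.

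Per kilobase of exon, the 4 detected genes were ordered as follows in ad libitum sorted cells (mean ± SD, n = 9 over both times). Isl1 stood at 655.5 ± 49.1 normalised counts per kb, Tbx3 at 123.7 ± 63.9, Bsx at 30.4 ± 16.9 and Otp at 14.3 ± 4.86. Isl1, Tbx3 and the rest were thus separated by more than their SDs, and the gap between Bsx and Otp was within the SD of Bsx. Agrp itself was at 49220 ± 17450 per kb. Nkx2-1 was at 0.416 ± 0.51 and the remaining members were listed at 0. In ad libitum RiboTag libraries (n = 7) Tbx3 was at 426.8 ± 145 and Isl1 at 418.6 ± 140 per kb, a difference within either SD. Bsx followed at 82.9 ± 34.8, Nkx2-1 at 38.7 ± 37, Otp at 9.59 ± 2.34 and Nhlh2 at 5.64.

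**Figure D1:**
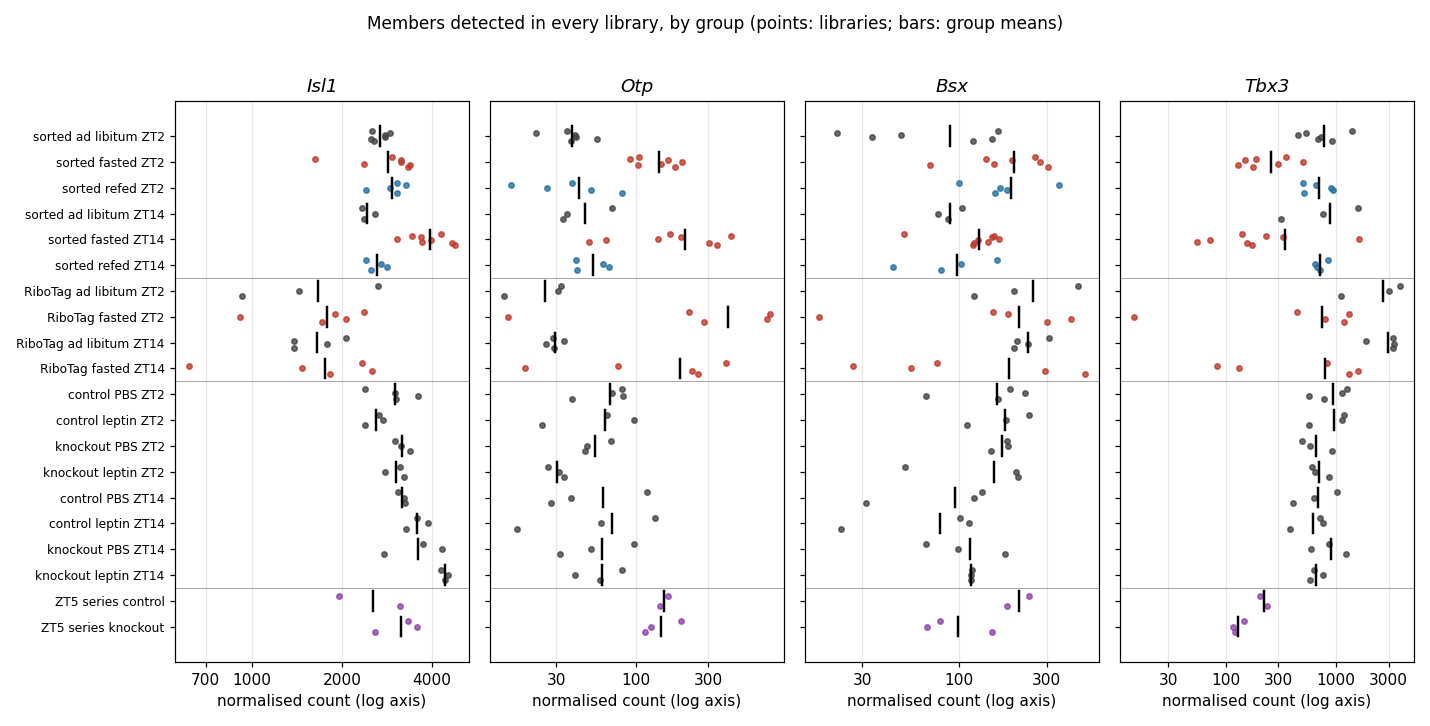
Normalised counts (log axis) of Isl1, Otp, Bsx and Tbx3 in all 80 libraries by group; points are libraries and black bars are group means, with fasted libraries red, refed blue, ZT5 purple and all others grey. Otp is highest and Tbx3 low in most fasted libraries and in the ZT5 libraries, while Isl1 varies least.

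Facts of the libraries that bear on these values are these. Depth, as reads recovered from the values of 79 libraries, ran from 5.93 to 34 M per library (median 14.3 M). The AgRP neuron markers (9 of 9 genes, among them Agrp, Npy, Lepr and Gad1) were detected in each set, with summed counts of 172600 to 2164000 in sorted and 26880 to 4262000 in RiboTag libraries. All 25 fasted and all 5 ZT5 libraries stood apart from the other 50 in Alyref and Cebpb, 2 genes outside the 8. Alyref, an mRNA export gene, was at 545.4 to 2756 in fasted and 1273 to 2173 in ZT5 libraries against 12.3 to 81.8 in the rest, and Cebpb, a stress-responsive factor, behaved likewise (42.5 to 1565, 433.2 to 629.6, and 0 to 17.1). Rn45s, the ribosomal RNA precursor, went the other way, at 1725 to 148400 and 1577 to 4007 against 50800 to 963300, so that its fasted range overlapped that of the 50. The 9 refed libraries, which had the same fast, were among the 50. The part of this shared profile in the differences below was not tested. It cannot be told apart from fasting in the fasted groups, nor from refeeding where refed and fasted libraries are compared. Summed astrocyte markers (6 genes: Gfap, Aqp4, Gja1, Aldh1l1, Agt, Slc1a3) were high in 3 sorted libraries (9739 to 14360, against 13.1 to 4397 in 30 others) and in 5 RiboTag libraries (32890 to 101000, against 8476 to 21360 in 12 others). Hsd11b2 was at 1048 to 3971 in Cre libraries outside the ZT5 set and at no more than 23.3 in libraries without Cre, but at 4628 in the library labelled ZT5 control 1 and at 11.2 in the library labelled ZT5 knockout 3, so these 2 go against their labels. The targeted gene was no clear check: Arntl overlapped between labelled controls and knockouts in the leptin series (291.2 to 1211 against 245.5 to 526.3 at ZT2, 223.1 to 422.5 against 107.8 to 394.5 at ZT14) and at ZT5 (390.4 and 750.3 against 470.2 to 540.5).

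The first comparison set fasted against ad libitum sorted NPY-GFP cells at ZT2. Otp and Bsx rose, Tbx3 fell, and Isl1 did not pass the test. Differences are given as log2(normalised count + 1) with the standard error, tested with limma across 14931 genes and adjusted by the Benjamini-Hochberg method. Of all tested genes 37.5% were called at this time, so 4 calls among 6 tested members stand against a high background. Of the 4, Nhlh2 reached 10 in 3 fasted libraries and in no other sorted library, so it entered the test only through them.

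Otp was at 22, 38.5 and 55.8 (lowest, median, highest of 6) in ad libitum cells and at 91.1, 146.8 and 202.7 (of 7) after the fast. All 7 fasted libraries lay above all 6 ad libitum ones. The mean rose from 38.4 ± 10.8 to 142.1 ± 42.8, a log2 difference of 1.85 ± 0.421 (adjusted p = 0.000713). Agrp rose by 1.58 (adjusted p = 0.0003) and Npy by 1.16 (adjusted p = 0.0279) in the same libraries. Otp kept its call in all 20 alternative analyses, at 1.54 to 1.97.

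Bsx ran from 22 to 163.2 (median 84.1) in ad libitum cells and from 70.1 to 305.9 (median 194.4) in fasted cells. The groups overlapped, with 4 of 7 fasted libraries above every ad libitum one. Its rise was 1.38 ± 0.419 (adjusted p = 0.00928). The quasi-likelihood test of edgeR on recovered reads gave 1.03 and did not call it (adjusted p = 0.0618).

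Tbx3 moved the other way. It ran from 447 to 1395 (median 707.3) in ad libitum cells and from 128.2 to 503.1 (median 185.7) in fasted cells, where 6 of 7 libraries lay below all others. It fell by 1.67 ± 0.48 on the log2 scale (adjusted p = 0.00597), from a mean of 784.8 ± 341.5 to 255.8 ± 136.2, and kept its call in all 20 alternatives.

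Isl1 ran from 2506 to 2901 (median 2679) in ad libitum and from 1620 to 3379 (median 3140) in fasted cells. The ranges overlapped, and the difference was 0.05 ± 0.142 (95% interval -0.24 to 0.34, adjusted p = 0.81). Among the barely detected members, Nhlh2 was listed at 0 in all 6 ad libitum libraries and at 13.2, 40.8 and 101.6 in fasted replicates 2, 4 and 6, with the other 4 at 0. It was called (adjusted p = 0.0274), but with every ad libitum library at 0 the fitted 2.27 is no measure of size. The largest of those 3 values sat in fasted replicate 6, which had one of the high astrocyte sums. Without replicate 2, 4 or 6 the gene no longer passed the filter and could not be tested. Nkx2-1 was at most 4.37 in ad libitum cells and at 160 in that same fasted replicate 6, and at 11.1 and 11.2 in fasted replicates 1 and 3 (1.64 ± 0.979, adjusted p = 0.191).

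At ZT14 the fast was followed by the same 2 opposed changes, in Otp and Tbx3, and by a rise of Isl1. Of all tested genes 18.5% were called at this time, and so were 3 of the 6 tested members. Isl1 was at 2337, 2373 and 2574 in the 3 ad libitum libraries and ran from 3040 to 4774 (median 3833) in the 8 fasted ones. Every fasted library lay above every ad libitum library. Isl1 rose by 0.68 ± 0.173 (adjusted p = 0.00516), from 2428 ± 128 to 3937 ± 602, and kept its call in all 18 alternatives, at 0.56 to 0.74. Agrp (1.01, adjusted p = 0.0784) and Npy (0.86, adjusted p = 0.254) did not pass at ZT14.

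Otp was at 33.3, 35.5 and 70.2 in ad libitum cells and ran from 49.2 to 423.8 (median 183.9) after the fast. In 6 of 8 fasted libraries it exceeded all 3 others, and the lowest values, 49.2 and 63.9, came from fasted replicates 3 and 4, which carried the high astrocyte sums. Its rise of 1.92 ± 0.513 (adjusted p = 0.00779) was lost without ad libitum replicate 1 (1.73, adjusted p = 0.0557) or replicate 2 (1.78, adjusted p = 0.0643). Tbx3 was at 317.2, 758.9 and 1587 in ad libitum cells and ran from 54.6 to 1627 (median 163.8) in fasted cells. It lay below all ad libitum values in 6 of 8 fasted libraries and above all of them in fasted replicate 5. It fell by 1.91 ± 0.584 on the log2 scale (adjusted p = 0.0197). That call was lost in the quasi-likelihood test (-1.35, adjusted p = 0.116), without ad libitum replicate 2 (-1.88, adjusted p = 0.0876) or replicate 3 (-1.35, adjusted p = 0.204), and without the 2 libraries of high astrocyte sum (-1.38, adjusted p = 0.0808). Bsx at 77.6, 87.2 and 104.9 in ad libitum cells and 50.6 to 164.7 (median 135.6) in fasted cells did not pass (0.46 ± 0.509, 95% interval -0.57 to 1.5, adjusted p = 0.567).

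Astrocyte markers moved with both fasting comparisons in sorted cells: 3 of 6 rose at ZT2 and 4 of 6 at ZT14, where 37.5% and 18.5% of all tested genes were called. A further fit left out the 3 fasted libraries of high sum and ad libitum ZT2 replicate 4, whose values were not whole multiples of 1 read. The markers still called there numbered 2 at ZT2 and 3 at ZT14. The members called numbered 3 and 2, among 5339 and 2240 genes called in all. Nhlh2 could no longer be tested at ZT2, and Tbx3 lost its call at ZT14. The further part of these markers in the members' differences was not tested. Whether the fasting differences at ZT14 and ZT2 were unequal was tested directly, and limma called 0% of genes (647 had a raw p below 0.05, and edgeR called 0). Isl1 came nearest among the members, with a difference of 0.63 ± 0.224 between both effects (unadjusted p = 0.00775, adjusted p = 0.999).

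**Figure D2:**
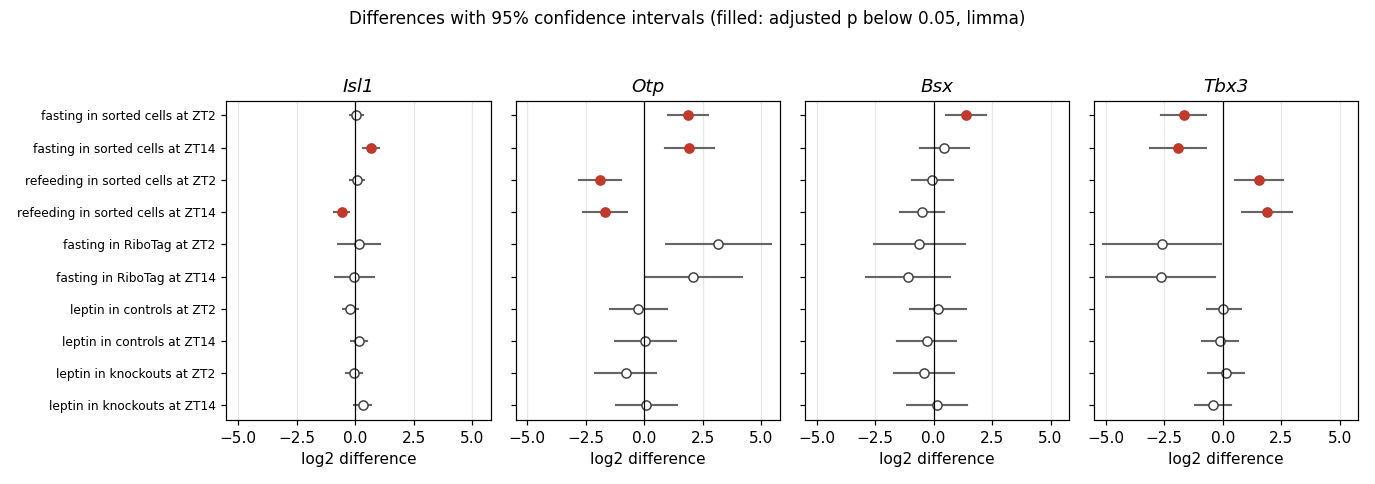
Log2 differences of Isl1, Otp, Bsx and Tbx3 in 10 comparisons, with 95% confidence intervals; filled points passed an adjusted p of 0.05 with limma. In sorted cells Otp and Tbx3 lie on opposite sides of 0 after fasting and change sides after refeeding, and the leptin comparisons span 0.

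The next comparison set sorted cells refed for 1 hour against fasted cells. Otp and Tbx3 differed in the direction opposite to that seen with fasting at both times, and Isl1 did at ZT14. Refeeding and fasting comparisons share the fasted libraries, so each set of values is given for itself. At ZT2 21.8% of genes were called, and 2 of the 6 tested members. Otp was at 15.1, 26.1, 38, 51.1 and 81.8 in the 5 refed libraries, all below the lowest fasted value of 91.1. It fell by 1.88 ± 0.443 (adjusted p = 0.00197) and kept its call in all 19 alternatives. Tbx3 was at 497.2, 510.6, 657.3, 895.5 and 943.5 after refeeding, and 4 of 5 values exceeded the highest fasted one. Its rise of 1.56 ± 0.505 (adjusted p = 0.0239) was lost in 4 of 19 alternatives: the quasi-likelihood test (adjusted p = 0.0563) and without fasted replicate 2 (0.0502) or refed replicates 2 (0.0636) or 3 (0.0563). Bsx was at 100.3 to 349.3 (median 166.8) in refed cells, within and above the fasted range, and did not pass (-0.05, adjusted p = 0.955). Isl1 differed by 0.07 (adjusted p = 0.769). Nhlh2 was listed at 0 in all 5 refed libraries and was not called (adjusted p = 0.0552).

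At ZT14 11.7% of genes were called between refed and fasted cells, and 3 of the 6 tested members. Isl1 was at 2411, 2501, 2698 and 2833 in refed libraries, below all 8 fasted ones, and fell by 0.58 ± 0.156 (adjusted p = 0.0107). With values corrected for gene length the fall was no longer called (-0.48, adjusted p = 0.0684). Otp was at 40.4, 41.2, 61.3 and 67, of which 2 lay below every fasted value, and fell by 1.70 ± 0.464 (adjusted p = 0.0118). Without refed replicate 1 it narrowly missed the threshold (-1.60, adjusted p = 0.0505). Tbx3 was at 644.5, 668, 710.9 and 837.7. These values were close to each other and lay within the fasted range because of the 1627 in fasted replicate 5. Tbx3 rose by 1.88 ± 0.528 (adjusted p = 0.0148), but not in the quasi-likelihood test (1.04, adjusted p = 0.244) nor without the libraries of high astrocyte sum (1.35, adjusted p = 0.0893). Bsx differed by -0.48 (adjusted p = 0.574).

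Refed cells were also set against ad libitum cells. At ZT2 17.7% of genes were called and 1 member, Bsx, which was higher after refeeding (191.2 ± 93.6, n = 5) than in ad libitum cells (90 ± 62.6, n = 6). Of the 5 refed libraries, 3 lay above all ad libitum ones. The difference of 1.33 ± 0.456 (adjusted p = 0.039) was lost in 10 of 18 alternatives, with adjusted p from 0.0187 to 0.167 over all of them. Otp (-0.03), Isl1 (0.12) and Tbx3 (-0.11) did not pass. At ZT14 0.375% of genes and no member were called, with Otp at 0.22, Isl1 at 0.10, Tbx3 at -0.03 and Bsx at -0.02.

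The RiboTag libraries give the same feeding contrast in another genotype and with another way of collecting RNA. With limma neither Otp nor Tbx3 passed there when all libraries were kept, and both did without the 5 libraries of high astrocyte sum. That exclusion was chosen after the data were seen, and it took out the lowest fasted values of both genes at both times. The p-values it gave are therefore no independent support. At ZT2 Otp was at 13.6, 30.9 and 32 in ad libitum libraries and at 14.5, 222.8, 279.2, 733 and 765.3 after the fast. The 4 high fasted values lay above all ad libitum ones, and the low one, replicate 3, lay among them. The difference was 3.16 ± 1.07 (95% interval 0.92 to 5.41, adjusted p = 0.0744), on a background of 7.89% of 15444 genes called by limma. None of the 7 tested members was called there, 2 had a raw p below 0.05, and edgeR called 1, Otp (3.98, adjusted p = 0.0267).

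Tbx3 was at 1117, 3045 and 3825 in those ad libitum libraries and at 14.5, 443.9, 798.3, 1177 and 1302 in fasted ones. In 3 of 5 fasted libraries it was below all ad libitum values, with replicate 3 far below the rest. The difference was -2.61 ± 1.2 (95% interval -5.13 to -0.09, adjusted p = 0.167). Without the libraries of high astrocyte sum (fasted replicate 3 and ad libitum replicate 1), Otp rose by 3.74 (adjusted p = 0.00068) and Tbx3 fell by 1.99 (adjusted p = 0.00883). Without fasted replicate 3 alone, Otp rose by 4.12 (adjusted p = 0.00406).

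At ZT14 Otp was at 25.8, 28.5, 28.9 and 33.9 in ad libitum RiboTag libraries and at 18.8, 76.7, 232.9, 256.2 and 392.1 in fasted ones, 4 of 5 above all others. Tbx3 was at 1889, 3264, 3292 and 3358 against 83.6, 130.3, 826.8, 1323 and 1595, with all 5 fasted libraries below all 4 others. With all libraries these differences were 2.10 ± 0.98 (adjusted p = 0.249) and -2.66 ± 1.1 (adjusted p = 0.187), where limma called 5.29% of genes and 0 of 7 members. A raw p below 0.05 was reached by 2 members, and edgeR called 0. Without the 3 libraries of high astrocyte sum Otp rose by 3.32 (adjusted p = 0.000889) and Tbx3 fell by 1.46 (adjusted p = 0.0365). Isl1 (0.16 at ZT2, -0.05 at ZT14) and Bsx (-0.61 and -1.08) did not pass, and the difference between both fasting effects was called for 0% of genes by limma (252 with a raw p below 0.05, 0 by edgeR).

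**Figure D3:**
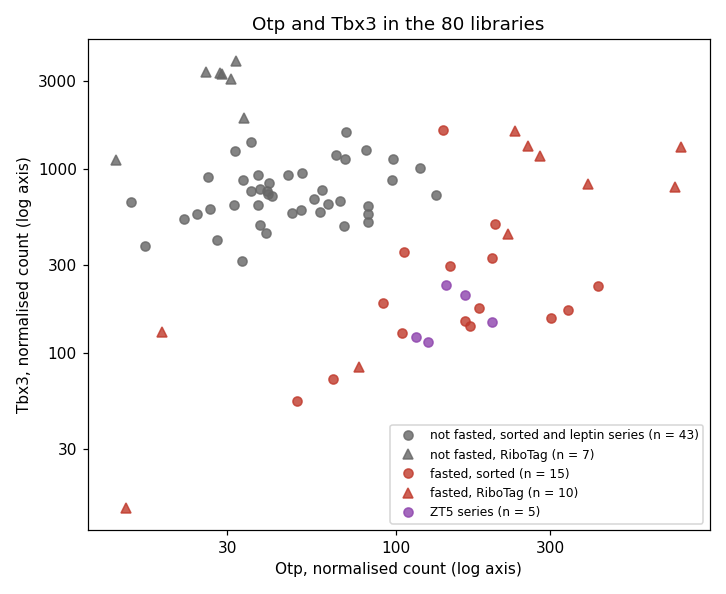
Otp against Tbx3 (normalised counts, log axes) in each of the 80 libraries; circles are sorted, leptin and ZT5 libraries, triangles are RiboTag, red marks fasted libraries and purple the ZT5 set. Of 25 fasted libraries 17 lie above all libraries that were neither fasted nor ZT5 in Otp and 14 lie below them in Tbx3, with 7 doing both, as do 3 of 5 ZT5 libraries.

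Across the whole series Otp and Tbx3 sorted the libraries in opposite ways. Otp exceeded the highest value of the 50 libraries that were neither fasted nor of the ZT5 set (133.1) in 17 of 25 fasted libraries and in 3 of 5 ZT5 libraries. Tbx3 lay below the lowest value of those 50 (317.2) in 14 of 25 fasted libraries and in all 5 ZT5 libraries. Both held together in 7 fasted and 3 ZT5 libraries, and none of these 7 was a RiboTag library. Over the 20 group means the Pearson correlation of both genes was -0.83 (Spearman -0.71), a description over groups that share sets and library profile; no other pair of the 4 detected genes went beyond -0.42.

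The ZT5 libraries, which the labels do not call fasted, lay nearer the fasted sorted cells than the fasted RiboTag libraries in mean Tbx3. Among the fasted groups their Otp means lay nearest those of sorted cells at ZT2 and farthest from RiboTag libraries at ZT2. Otp means were 153.2 in ZT5 controls and 146.4 in knockouts. They were 142.1 and 210.9 in fasted sorted cells at ZT2 and ZT14, and 403 and 195.3 in fasted RiboTag libraries. In the same order Tbx3 means were 220 and 128.1, 255.8 and 347.4, and 747 and 791.8. Otp was at 143.3 and 163.2 in the 2 ZT5 controls, against 38 to 82 in the 4 PBS controls at ZT2 of the same labelled genotype, a log2 difference of 1.23. Tbx3 was at 205.4 and 234.6 against 564 to 1263, a difference of -2.01. Bsx differed by 0.51 and Isl1 by -0.27. With ZT5 control 2 alone, the control whose Hsd11b2 went with its label, these were 1.32 for Otp, -2.11 for Tbx3, 0.71 for Bsx and -0.61 for Isl1. These sets were not compared in a test, since set, time and treatment cannot be told apart.

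How the sorted and RiboTag preparations differ was read in ad libitum libraries, where Nkx2-1, Nhlh2, Tbx3 and Bsx were higher in RiboTag and Isl1 was lower. Method and genotype cannot be told apart here. Limma called 59.2% of 15182 genes at ZT2 and 55.1% at ZT14, with a median difference over all genes of 0.29 and 0.33. It called 5 of 6 tested members at ZT2 and 3 of 6 at ZT14. Nkx2-1 and Nhlh2 are counted at both times. They passed the filter only through the RiboTag libraries in which they were high, so their calls are no independent support. Nkx2-1 was at 58.6, 62.6 and 298.4 in the RiboTag libraries at ZT2 and at 20.4, 49.6, 60.7 and 218.8 at ZT14, against 0 to 4.37 in all 9 sorted libraries. The groups did not overlap, and the difference was 5.60 ± 0.788 (adjusted p = 1.14e-05) and 5.55 ± 0.851 (adjusted p = 3.73e-05). With sorted values at or near 0 its size depends on the settings, and it ran from 3.33 to 6.32 at ZT2 and from 2.82 to 7.66 at ZT14 over the alternatives. Nhlh2 was at 5.49 to 90.2 and 14.1 to 33.6 in RiboTag and listed at 0 in all 9 sorted libraries (adjusted p = 8.92e-05 and 0.000129), so that no fold is given.

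Tbx3 was higher in RiboTag by 1.68 ± 0.435 at ZT2 (adjusted p = 0.00278) and 1.98 ± 0.47 at ZT14 (adjusted p = 0.00169). Bsx was higher by 1.66 ± 0.542 at ZT2 (adjusted p = 0.0134), a call lost without RiboTag replicate 3 (1.16, adjusted p = 0.108), and by 1.39 at ZT14 (adjusted p = 0.0515). Isl1 was lower by 0.81 at ZT2 (-0.81 ± 0.228, adjusted p = 0.00504), a call lost without RiboTag replicate 1 (-0.46, adjusted p = 0.0816) and without the libraries of high astrocyte sum and the library without whole reads (-0.45, adjusted p = 0.0966). At ZT14 Isl1 (-0.58) did not pass (adjusted p = 0.0544). Otp did not pass at either time (-0.62 and -0.57). Agrp differed by -2.04 and -2.07 in the same comparisons. Markers of other cells moved with these differences: all 6 astrocyte, 5 oligodendrocyte, 5 microglial and 5 endothelial genes were higher in RiboTag at both times. Their part was not tested.

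In RiboTag libraries Nkx2-1 and Nhlh2 ran with the astrocyte sum, and in sorted cells Nkx2-1 did. In the 5 RiboTag libraries of high sum, 1 or more from each feeding state and time, Nkx2-1 was at 81.3 to 298.4 (median 186.1), against 19.5 to 63.5 (median 40.5) in the other 12, with no overlap. Nhlh2 was at 20 to 181.5 (median 90.2) against 0 to 33.6 (median 14.3). Hmx2 had medians of 7.98 and 1.65 and Hmx3 of 8.36 and 2.37. The other 4 members ran the opposite way, with medians of 928.6 and 1975 for Isl1, 18.8 and 227.8 for Otp, 55.1 and 265.3 for Bsx, and 130.3 and 1459 for Tbx3, and ranges that overlapped for all 4. In the 3 sorted libraries of high sum Nkx2-1 was at 36.6, 58.9 and 160, above the 0 to 15.4 of the other 30. The libraries were split by the marker sum after it had been seen, and no test was made of that split.

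**Figure D4:**
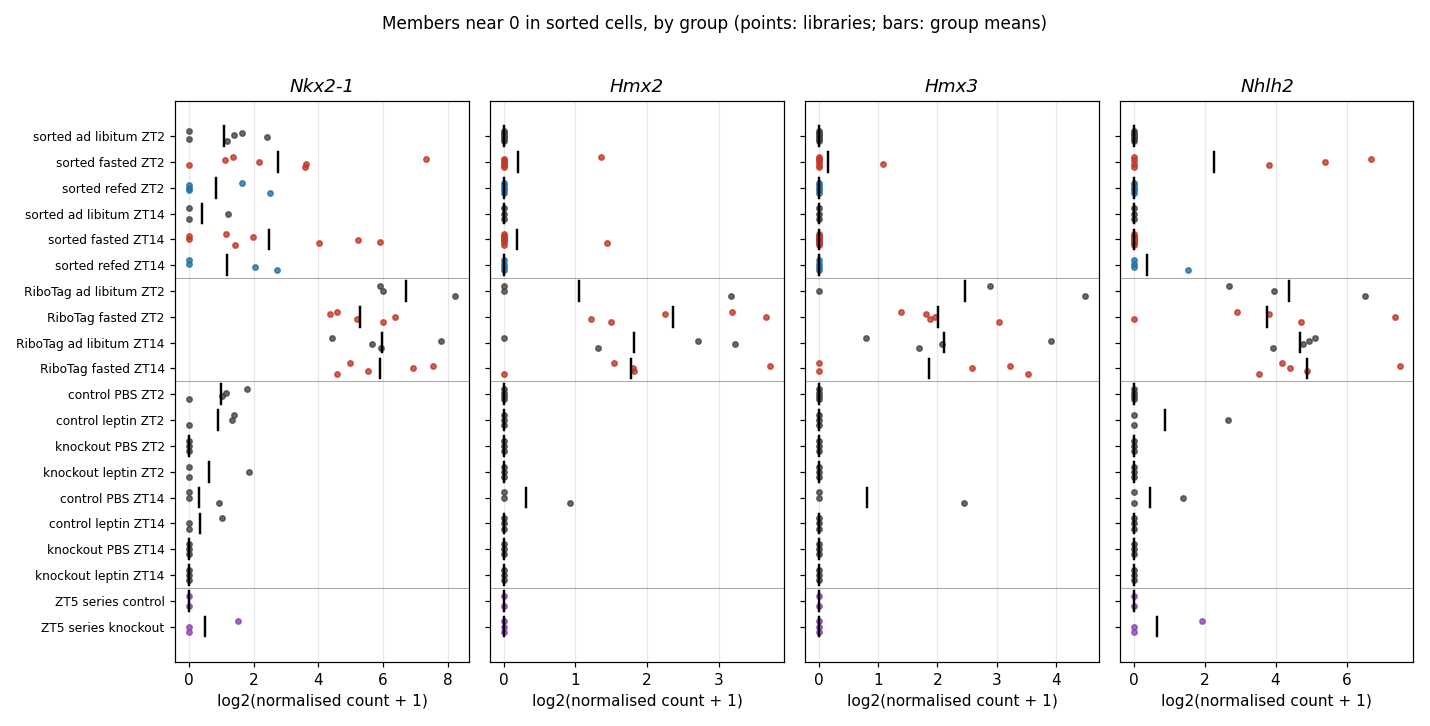
Log2(normalised count + 1) of Nkx2-1, Hmx2, Hmx3 and Nhlh2 in all 80 libraries by group; points are libraries and bars are group means, with colours as for the 4 detected genes. Nkx2-1 and Nhlh2 reach a normalised count of 10 in RiboTag libraries of each group and, outside them, only in 6 and 3 fasted sorted libraries, respectively.

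**Figure D5:**
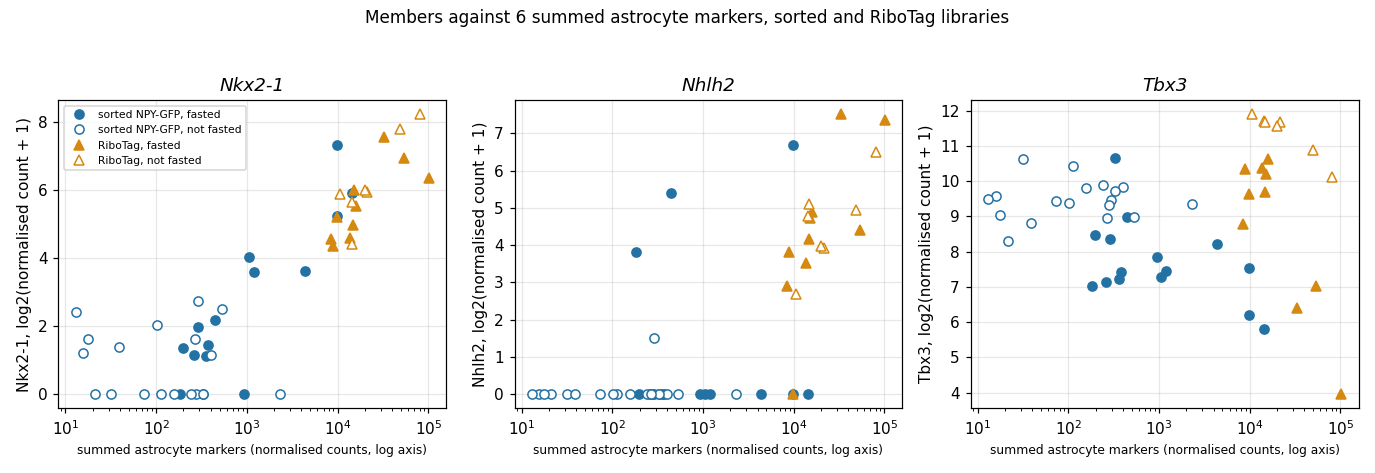
Log2(normalised count + 1) of Nkx2-1, Nhlh2 and Tbx3 against the summed normalised counts of 6 astrocyte markers (log axis) in the 33 sorted (circles) and 17 RiboTag (triangles) libraries; filled symbols are fasted. Nkx2-1 is highest at the right of each preparation.

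Within RiboTag libraries Nkx2-1 did not pass between feeding states (-1.40 at ZT2, adjusted p = 0.283, and -0.04 at ZT14). Nhlh2 differed by -0.63 and 0.21 and Hmx3 by -0.44 and -0.25, none called. At ZT2 the fasted values of Nkx2-1 were 19.5, 22.8, 36, 63.5 and 81.3. At ZT14 they were 23.1, 30.3, 44.9, 121.5 and 186.1, the highest 2 again from the libraries of high astrocyte sum.

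Leptin, the adipocyte hormone that inhibits AgRP neurons, was tested against PBS in each genotype and time, and no member passed. In control mice Otp was at 38, 69.7, 80.8 and 82 after PBS and at 24.2, 65 and 98 after leptin at ZT2. Tbx3 was at 564, 779.4, 1130 and 1263 against 565, 1133 and 1179. Bsx was at 66.7, 164.1, 189.6 and 229.5 against 110.6, 180.7 and 241.7, and Isl1 at 2392, 2996, 3031 and 3582 against 2392, 2659 and 2742. The groups overlapped for each gene. The differences were -0.20 for Isl1 (95% interval -0.52 to 0.13), -0.26 for Otp (-1.48 to 0.96), 0.19 for Bsx (-1.01 to 1.39) and 0.03 for Tbx3 (-0.69 to 0.76). The interval was narrowest for Isl1 and widest for Otp.

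At ZT14 leptin in controls gave 0.16 for Isl1, 0.03 for Otp, -0.30 for Bsx and -0.11 for Tbx3. In knockouts it gave -0.06, -0.80 (adjusted p = 0.782), -0.39 and 0.12 at ZT2, and 0.32 (95% interval -0.03 to 0.66, adjusted p = 0.974), 0.09, 0.15 and -0.40 at ZT14, in the same order. Isl1 was at 4282, 4420 and 4505 in leptin-treated knockouts at ZT14, the highest group mean of all 20, against 2756, 3713 and 4299 after PBS. Limma called 0.0215% of 13942 genes for leptin in controls at ZT2, 0% at ZT14 (384 with a raw p below 0.05, 0 by edgeR), and 0.423% and 0.0861% in knockouts. Of the 4 members tested in this series none had a raw p below 0.05 in any of these comparisons, and edgeR called none. Whether leptin acted differently in the genotypes was tested as an interaction, in which limma called 0% of genes at either time (472 and 371 with a raw p below 0.05, 0 by edgeR); the member values ran from -0.59 (Bsx) to 0.13 (Isl1) at ZT2 and from -0.30 (Tbx3) to 0.45 (Bsx) at ZT14.

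Loss of Arntl by label was compared within each treatment and time, and no member passed. After PBS the knockout differences were 0.09 for Isl1, -0.27 for Otp, 0.21 for Bsx and -0.48 for Tbx3 (95% interval -1.20 to 0.24) at ZT2, and 0.15, 0.11, 0.39 and 0.43 (95% interval -0.35 to 1.20) at ZT14. After leptin they were 0.22, -0.81, -0.37 and -0.39 at ZT2 and 0.31, 0.17, 0.85 and 0.13 at ZT14. The shares of genes called were 0.0215% and 0.00717% after PBS, and 0.00717% and 0.0215% after leptin. Otp after leptin at ZT2 was at 26.4, 31.5 and 33.5 in knockouts and at 24.2, 65 and 98 in controls, so the groups overlapped.

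At ZT5 Bsx was at 183.6 and 242.1 in the libraries labelled control and at 67, 79.6 and 151.2 in those labelled knockout. The difference was -1.17 ± 0.501 (95% interval -2.30 to -0.04) and did not pass the adjustment (adjusted p = 0.553). Tbx3 was at 205.4 and 234.6 against 115.4, 121.7 and 147.1 (-0.78, 95% interval -1.67 to 0.11, adjusted p = 0.604). Isl1 (0.34) and Otp (-0.11) did not pass. Limma called 0% of 12940 genes (1157 with a raw p below 0.05, 0 by edgeR), and 1 member, Bsx, had a raw p below 0.05. The library labelled control 1 held 183.6 and the one labelled knockout 3 held 79.6 for Bsx, and both go against their genotype labels by Hsd11b2. With both left out, 1 control remains against 2 knockouts.

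Time of day did not move any member past the threshold. ZT14 minus ZT2 in ad libitum sorted cells was -0.14 for Isl1, 0.23 for Otp, 0.36 for Bsx and -0.01 for Tbx3 (0% of genes called by limma, 413 with a raw p below 0.05, 0 by edgeR). In fasted sorted cells it was 0.49 ± 0.132 for Isl1 (adjusted p = 0.107), where 0.281% of genes were called, and 0.30, -0.56 and -0.25 for the other three. In refed cells Bsx was at 100.3 to 349.3 at ZT2 and 44.3, 80.5, 103.2 and 161.7 at ZT14 (-0.99, adjusted p = 0.663), with 0.0268% of genes called. In PBS controls (0.00717% called) Bsx was at 66.7 to 229.5 at ZT2 and 31.4, 121.3 and 133.8 at ZT14 (-0.87, 95% interval -2.07 to 0.32), and in PBS knockouts (0% called, 692 with a raw p below 0.05, 0 by edgeR) the difference was -0.69. Between times limma called 0% of genes in ad libitum and 0% in fasted RiboTag libraries (92 and 1381 with a raw p below 0.05, 0 by edgeR in each).

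The 20 group means of each gene formed a run with few steps. Of the 19 neighbouring pairs in the order of the means, those apart by more than the larger of the 2 SDs numbered 2 for Isl1, 1 for Otp, 0 for Bsx and 2 for Tbx3, and 0 for each of the others. The single step of Otp separated fasted sorted cells at ZT2 (142.1 ± 42.8) from leptin-treated controls at ZT14 (69.6), and thus the fasted and ZT5 groups from all others. Otp was highest in fasted and lowest in ad libitum RiboTag libraries at ZT2. Tbx3 was highest in ad libitum RiboTag libraries at ZT14 and lowest in the ZT5 knockouts. Bsx was highest in ad libitum RiboTag libraries at ZT2 and lowest in leptin-treated controls at ZT14, and its neighbours in that order did not differ beyond their spread anywhere.

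The genes whose group means followed each member most closely were sought among 11485 genes tested in all 4 sets, over 20 groups, by Pearson correlation of mean log2 values. For Isl1 they were Ptpn2 (0.937), Tigd2 (0.917) and Gem (0.916). For Otp they were Ube2m (0.944), Wibg (0.943) and Gnas (0.939), and for Tbx3 Pde4dip (0.977), Nfasc (0.965) and Fasn (0.962). Bsx had no gene as close, with Sncaip at 0.822, Tmod1 at 0.787 and Mcm7 at 0.780. Groups share their set and library profile, so these values describe likeness only.

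Genes related to the 8 by function were then counted from 8 lists. Among the genes the members are known to act on, 6 of 8 tested rose with fasting in sorted cells at ZT2 and none fell (median 1.37, against -0.02 over all genes). On this background of 37.5% of genes called, they were Agrp (1.58), Sst, the somatostatin gene (1.4, adjusted p = 0.00179), Th, the tyrosine hydroxylase gene (1.89, adjusted p = 0.00362), Pcsk1 (1.02, adjusted p = 0.0139), Pomc (2.21, adjusted p = 0.0231) and Npy (1.16). Pomc lost its call in 3 of 20 alternatives, at 1.46 to 4.41 over all of them, and Npy in 7 of 20. At ZT14, where 18.5% of genes were called, 2 of 8 rose, Trh and Th, and Th lost its call in 13 of 18 alternatives. Trh was at 35.6 ± 44.2 in fasted and listed at 0 in ad libitum cells. With limma no gene of the 8 passed after refeeding at either time, and edgeR called 1 fall at ZT2. Refed cells exceeded ad libitum cells in 6 of 8 at ZT2, against 17.7% of all genes called. That count was 5 with edgeR, and 5 without the libraries of high astrocyte sum and the library without whole reads. In RiboTag at ZT2 3 of 9 rose, Sst (3.23), Pomc (3.32) and Agrp (3.49), against 7.89% of all genes called. Agrp was at 1489000 in fasted replicate 5 and at no more than 124300 in the other 4 fasted libraries. Without replicate 5 its difference was 2.58 and not called (adjusted p = 0.053), and its call was lost in 9 of 15 alternatives in all, at 2.39 to 4.82. Pomc lost its call in 5 of 15. Without the libraries of high astrocyte sum and the library without whole reads, 5 of 8 rose with fasting at ZT2.

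Isl1 is a LIM-homeodomain protein and works in complexes with LIM cofactors, of which Ldb1 encodes the central adaptor. Ldb1 rose with every fast: from 130.8 ± 56.2 to 546.1 ± 171 in sorted cells at ZT2 (2.09 ± 0.242, adjusted p = 3.39e-08), by 2.28 ± 0.295 at ZT14 (adjusted p = 9.36e-07), and in RiboTag by 3.30 ± 0.293 (adjusted p = 1.02e-06) and 3.10 ± 0.269 (adjusted p = 4.44e-07). It fell after refeeding by 2.10 at ZT2 (adjusted p = 1.57e-07) and by 2.25 at ZT14 (adjusted p = 1.22e-07). After the fast at ZT2, with 37.5% of all genes called, 3 of the 10 cofactor genes were higher and 3 lower. Lmo1 (4.02) and Lmo2 (2.00) were among the former. Rlim (-1.18, and -1.28 to -0.63 over the alternatives), a ligase for LIM cofactors, was among the latter. At ZT14, with 18.5% of all genes called, 3 rose and 2 fell, and without the 2 fasted libraries of high astrocyte sum 2 rose and none fell.

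Other regulators were mixed. The counts that follow are for the fast at ZT2 and stand against 37.5% of all genes called. Among 13 general neuronal factors, 2 were higher in fasted cells and 6 lower (median -0.98). The falls included Zfhx4 (-4.24), Myt1l (-1.76) and Zfhx3 (-1.04). With values corrected for gene length these were -3.15, -0.78 and 0.31, and Zfhx3 was no longer called by limma (adjusted p = 0.312). Of 8 hormone-responsive regulators of Agrp, 1 rose and 3 fell. Nr4a1 rose by 3.16, at 1.55 to 3.92 over the alternatives. The falls included Creb1 (-1.72, and -0.76 with values corrected for gene length). The glucocorticoid receptor gene Nr3c1 also fell (-0.94, and -1.12 to -0.51 over the alternatives). Of 9 hypothalamic patterning factors, Hes1 (5.15) and Sox9 (3.64) rose and Pax6 (-2.27) fell, a call lost in 9 of 20 alternatives. Over the alternatives Hes1 ran from 2.72 to 8.65 and Sox9 from 2.96 to 4.79. Both are also expressed by astrocytes, whose markers moved with this comparison. None of 6 tested factors of the GABAergic arcuate lineage passed, and of 5 factors of neighbouring hypothalamic neurons 1 did, Arnt2 (-1.08). Nkx2-4, a paralogue of Nkx2-1, was the 1 paralogue tested in sorted cells and rose from 0.583 ± 1.43 to 31.8 ± 43.9 at ZT2 (3.88 ± 0.762, adjusted p = 0.000129). It was listed at 0 in all 9 refed libraries. Neither these nor the ad libitum libraries at ZT2 could have brought Nkx2-4 past the filter. With ad libitum values near 0 the size of its rise depends on the settings, and it ran from 1.54 to 5.15 over the alternatives.

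Factors of other lineages separated the preparations. In RiboTag against sorted ad libitum cells at ZT2, 9 of 9 tested GABAergic arcuate lineage factors were higher (median 4.78, against 0.29 over all genes), with Dlx1 at 66.9 ± 58.3 against 1.30 ± 1.53. All 10 tested factors of neighbouring neurons were higher as well (median 4.91), among them Nr5a1 (82.4 ± 95.2 against 0.349 ± 0.854), the factor of the ventromedial nucleus, and Fezf1, which was listed at 0 in all sorted ad libitum libraries at ZT2. At ZT14 the counts were 9 of 9 and 9 of 10. Limma called 59.2% of all genes at ZT2 and 55.1% at ZT14, of which 61.4% and 63.2% were higher in RiboTag. Factors at or near 0 in sorted cells could enter the test only through the RiboTag libraries in which they were high. In the leptin series, 1 related gene was called in these lists for leptin in knockouts at ZT2, Sox9 (3.79, adjusted p = 0.0154), on a background of 0.423% of genes. It was lost without knockout leptin replicate 1 (3.31, adjusted p = 0.0936) or knockout PBS replicate 4 (4.02, adjusted p = 0.0568). Creb1 was the 1 gene of the lists called between times in fasted sorted cells (1.06, adjusted p = 0.0204), where 0.281% of all genes were called. That call was lost in 4 of 22 alternatives. They were the replicate block (1.10, adjusted p = 0.0571), the fits without fasted ZT2 replicate 3 (1.00, adjusted p = 0.0664) or 6 (0.98, adjusted p = 0.0594), and the fit without the libraries of high astrocyte sum and the library without whole reads (0.86, adjusted p = 0.139).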

How the data were processed

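The authors deposited 1 table of normalised counts, a signal in which each gene's reads are divided by a library size factor, with no raw counts beside it. Per the labels' protocols RNA was amplified with the SMART-seq v4 kit and made into libraries with Nextera XT. The submitters' processing notes name STAR 2.5.1, Subread, featureCounts, DESeq, DESeq2, R 3.5.1 and the build mm10, with no role or order. Low values of 79 of 80 libraries were whole multiples of 1 step within 0.1, which gave back the reads; ad libitum sorted ZT2 replicate 4 was the exception.

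Each set was fitted on its own with limma 3.58.1 (R 4.3.3) on log2(value + 1), with an intensity trend, for genes at 10 or more in at least as many libraries as the smallest group held, and ad libitum sorted and RiboTag libraries together for the comparison of preparations (5 fits, 30 comparisons). The fits differ in library number and depth (8.16 to 27.4 M reads in sorted, 11.4 to 23.1 in RiboTag, 5.93 to 34 in leptin and 10.8 to 17.3 in ZT5 libraries), which sets their precision. P-values were adjusted over all tested genes, with a threshold of 0.05. Tested on simulated data, limma recovered 28% of 2-fold and 76% of 4-fold changes for fasting in sorted cells at ZT2 and 18% and 61% at ZT14. It recovered 0% and 33% for fasting in RiboTag libraries at ZT2, 20% and 71% for control mice given leptin at ZT14, and 20% and 55% for the knockout at ZT5. Alternatives were a pseudocount of 10, no filter, TMM rescaling, edgeR 4.0.16 (quasi-likelihood) applied to recovered reads, a replicate block, a lowess correction (span 0.3) on exon length (known for 98.1% of symbols), and leaving out each library. Leaving out 11 libraries together was added after seeing the data: 8 with high astrocyte sums, 2 with Hsd11b2 against the genotype label and 1 without whole reads. Figures were drawn with Python 3.11.15, numpy 2.4.6, pandas 2.3.3 and matplotlib 3.10.9.

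The members and lists were chosen with earlier results of these data known. Genes named beside the members were Agrp and Npy, up to 4 called genes of each list by smallest p (up to 2 where none was called), and the 3 genes most alike each member; the genes that describe the libraries (Alyref, Cebpb, Rn45s, Hsd11b2, Arntl) were picked after their values were seen. Some genes of the lists that the rule would name are counted but not reported here by name.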

Additional observations from a re-analysis of the deposited data

Results flagged for a closer look

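In 55 pairs of a member and a group of 4 to 8 libraries, 4 held a library whose gap to its nearest neighbour was large for the range of the group by Dixon's criterion at 95%. The criterion is set to flag about 1 in 20 by chance, a rate that does not hold for pairs with libraries listed at 0. Tbx3 was at 1889 in ad libitum RiboTag ZT14 replicate 3, below 3264 to 3358 in the other 3. Tbx3 was at 14.5 in fasted RiboTag ZT2 replicate 3, below 443.9 to 1302 in the other 4. Both libraries are among the 5 RiboTag libraries of high astrocyte sum; the part of those cells in these values was not tested. Bsx was at 50.6 in fasted sorted ZT14 replicate 8, below 119.4 to 164.7 in the other 7, and that library had no high astrocyte sum. Nhlh2 was at 1.87 in refed sorted ZT14 replicate 1, which is 2 reads, with the other 3 listed at 0. With the others at 0, any value above 0 would be flagged.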

How the results depend on the processing

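Under 2585 alternative values of member differences, 28 calls were lost, 18 were gained and none reversed. Of the 21 called differences, Otp and Tbx3 with fasting at ZT2, Otp with refeeding at ZT2, Isl1 with fasting at ZT14, and Tbx3, Nkx2-1 and Nhlh2 between preparations at both times kept their calls in all alternatives run. Nkx2-1 and Nhlh2 passed the filter of that joint fit through RiboTag libraries alone. Nhlh2 with fasting at ZT2 was called in the 16 of 20 alternatives in which it could be tested. The rest each left out 1 of the 3 fasted libraries through which it passed the filter, so its stability cannot be judged. Losses of the remaining calls are given in the report, and the cause of those losses was not tested. TMM factors moved the median of all genes by more than 0.1 in the comparison of preparations only (0.29 to 0.17 at ZT2, 0.33 to 0.20 at ZT14).

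Leaving out each library in turn, members called ranged from 1 to 3 with refeeding in sorted cells at ZT2 (1 without fasted replicate 2 or refed replicates 2 or 3), from 0 to 1 for refed against ad libitum cells at ZT2 (0 without ad libitum replicates 3, 4 or 5 or refed replicates 1, 2, 3 or 4), from 1 to 3 with fasting in sorted cells at ZT14 (1 without ad libitum replicate 2), and from 0 to 1 with fasting in RiboTag at ZT2 (1 without fasted replicate 3). Without a filter, with edgeR, and without the 11 libraries left out together, the refed against ad libitum count at ZT2 was 0 in each. The RiboTag count at ZT2 was 1 with edgeR and 2 without those libraries, and at ZT14 it was 2 without them. Genes called ranged from 1439 (without refed replicate 4) to 2832 for refed against ad libitum cells at ZT2, from 1244 (without ad libitum replicate 2; 1697 without replicate 3) to 3502 with fasting in sorted cells at ZT14, from 1138 (without refed replicate 2) to 2447 with refeeding at ZT14, and from 439 (without ad libitum replicate 2) to 2252 (without fasted replicate 1) with fasting in RiboTag at ZT2, where leaving out ad libitum replicates 1 and 3 gave 480 and 712. Where no member was called under any setting, counts of genes moved most for leptin in knockouts at ZT2 (59, from 6 to 108), for the knockout after PBS at ZT2 (3, from 1 to 34), between times in fasted (42, from 9 to 67) and refed (4, from 0 to 43) sorted cells and PBS knockouts (0, up to 31), for refed cells set against ad libitum cells at ZT14 (56, from 21 to 79), and at ZT5 (0, up to 98 without control 1).

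Equal replicate numbers did not pair the libraries: the deviations of same-numbered libraries correlated between -0.44 and 0.412 in sorted cells, between -0.379 and 0.455 in RiboTag and between -0.28 and 0.407 in the leptin series. With the replicate number as a block, 4 members and 5443 genes were called with fasting at ZT2 and 3 members and 2870 genes at ZT14; no member call was lost and 1 was gained (Bsx between preparations at ZT14, 1.42, adjusted p = 0.0438). Depth limits Hmx2, Hmx3 and, outside RiboTag, Nhlh2 and Nkx2-1, whose counts lay near the 3-read floor. With 2 to 4 libraries in most groups of the leptin and ZT5 sets, 20% of 2-fold changes were recovered in simulated data.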
